A study of Mus musculus with 9 samples.

Results

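The genes described here encode the enzymes that build and sulfate glycosaminoglycans, the long sugar chains of the extracellular matrix and the cell surface. They were chosen by gene symbol. All genes whose names follow the series Chst, Ndst, Hs3st, Hs6st, Ext, Extl, Chsy, Has, Xylt or Sulf were taken, together with Hs2st1, Glce, Chpf, Chpf2, Csgalnact1, Csgalnact2, Dse, Dsel, Ust, Ugdh and B3gat3. This gave 53 genes of 23420 counted, and the rule uses no measured value. The libraries, 3 per tissue, were RNA sequencing of sorted mesenchymal cells of C57BL/6 mice, aged 3 to 4 weeks, from thymus, bone and skin. Thymus cells came from digested thymi. Bone cells came from fragments of pelvis, tibia and femur that were digested and then crushed. Skin cells came from the dermis of the trunk (back and belly), how it was digested not being given in the sources used here. The sort kept SCA1-positive cells, SCA1 being a surface antigen of stromal progenitors, and removed those with CD31 (endothelium), EpCAM (epithelium) or an antigen of blood cells (CD45, TER119, CD41, B220, GR-1, CD11b, CD4, CD2). No genotype or treatment is named for any group. The thymus libraries are named 2, 3 and 1-3, and if the last is a pool it shares material with the others. Whether the libraries of a tissue stem from separate animals is not in the labels. Each p-value therefore sets a difference between tissues against the spread of these samples only, and that spread may be technical.

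Heparan sulfate and chondroitin sulfate are both grown on a short linker that xylosyltransferases start on a core protein. After polymerisation, heparan sulfate is modified by N-deacetylation and N-sulfation, by epimerisation and by O-sulfation, and it then binds growth factors and chemokines according to its pattern. Chondroitin sulfate carries O-sulfates on its N-acetylgalactosamine and becomes dermatan sulfate when its glucuronic acid is epimerised; both belong to the cartilage and skin matrix. Hyaluronan has no core protein and no sulfate, and is made at the plasma membrane from UDP-glucuronic acid and UDP-N-acetylglucosamine by the synthases Has1, Has2 and Has3.

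Gene reads per library ranged from 78757872 to 116759235. The 53 genes together took 0.283 ± 0.0097% of gene reads in thymus, 0.383 ± 0.016% in bone and 0.372 ± 0.010% in skin (SD, n = 3). Levels are CPM, read counts scaled to library size with TMM factors, and a log2 fold change is followed by its SE, which was worked back from the test and is approximate. It is thymus minus bone, thymus minus skin or bone minus skin on the log2 scale, so a negative value means a lower level in the tissue named first in that list. Levels of different genes were compared only on the deposited RPKM, which is per gene length. Skin libraries held far more collagen: Col1a1, Col1a2 and Col3a1 took 24.4% of gene reads there, against 4.45% in thymus and 6.64% in bone. Scaling by library size only moved the median of all genes by 0.63 on the log2 scale between thymus and skin and by 0.69 between bone and skin, and many small differences from skin depended on it. In these bulk samples fewer cells of a type and less RNA per cell cannot be told apart. The sorted cells also differed in the RNA of other cell types. The summed level of 8 chondrocyte markers ranged from 14.1 to 21.9 CPM in thymus (Matn1 and Matn3 at 0 reads), from 1544 to 1882 in bone and from 24 to 40.4 in skin (Matn1 at 0 reads). For 8 myeloid markers it was 13.2 to 43.9 in thymus, 2513 to 3505 in bone, and in skin 36.5 to 83.7 (Elane at 0 reads). For 8 thymocyte markers it was 58.7 to 166 in thymus, 29.6 to 38.5 in bone (Ptcra and Themis at 0 reads) and 0.0733 to 0.623 in skin (Cd3e, Ptcra and Themis at 0 reads). Mural cell markers (6 genes, all with reads in each tissue) had their highest sum in thymus, at 897 to 1219 CPM. Their sum was 176 to 204 in bone and 40 to 106.5 in skin. Of the 6, 4 were higher and 1 lower in thymus than in bone, beside 16.5% and 16.1% of all genes. Osteoblast markers (6) summed to 17.9 to 23.5 CPM in thymus (Bglap and Bglap2 at 0 reads), 167 to 460.3 in bone and 7.06 to 12.1 in skin (Ibsp at 0 reads). The summed level of endothelial markers (7) was highest in skin, at 250.5 to 347 CPM. It was 67.4 to 103 in thymus and 61.3 to 82.6 in bone. Single endothelial markers were split, with 2 higher and 2 lower in thymus than in skin, beside 19.3% and 18.3% of all genes. Between bone and skin also 2 were higher and 2 lower in bone, beside 23.7% and 23.4%. Keratinocyte markers (7) also had their highest sum in skin, at 34.9 to 69.7 CPM. They summed to 17.3 to 24.6 in thymus and 2.65 to 3.67 in bone (Dsg3 at 0 reads). The part of these cells in the results was not tested.

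The 250 bases before the start site are shown for 7 enzymes chosen, after their values were seen, as examples of genes low or high in thymus, high in bone or high in skin, so that the sequences can be read beside the levels. They are from RefSeq on GRCm38.p6, the mm10 build of the files, and run 5′ to 3′ on the gene's strand up to the base before the start. Has1 lies on chr17:17855189-17855438 (minus strand), Ugdh on chr5:65435843-65436092 (minus), Extl1 on chr4:134372548-134372797 (minus) and Chst2 on chr9:95407271-95407520 (minus). Chst3 lies on chr10:60219261-60219510 (minus), Chst12 on chr5:140505359-140505608 (plus) and Ust on chr10:8518826-8519075 (minus). Capitals mark matches to the motifs searched on both strands.

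Has1: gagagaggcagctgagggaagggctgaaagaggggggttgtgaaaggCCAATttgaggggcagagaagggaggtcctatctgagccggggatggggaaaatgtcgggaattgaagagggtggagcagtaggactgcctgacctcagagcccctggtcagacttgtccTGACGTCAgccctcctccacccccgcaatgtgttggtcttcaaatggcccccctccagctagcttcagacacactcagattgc
Ugdh: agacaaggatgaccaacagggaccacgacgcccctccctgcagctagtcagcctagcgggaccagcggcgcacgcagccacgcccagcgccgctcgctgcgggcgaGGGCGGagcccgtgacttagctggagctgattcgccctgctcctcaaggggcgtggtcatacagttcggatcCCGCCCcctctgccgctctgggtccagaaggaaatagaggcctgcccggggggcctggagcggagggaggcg
Extl1: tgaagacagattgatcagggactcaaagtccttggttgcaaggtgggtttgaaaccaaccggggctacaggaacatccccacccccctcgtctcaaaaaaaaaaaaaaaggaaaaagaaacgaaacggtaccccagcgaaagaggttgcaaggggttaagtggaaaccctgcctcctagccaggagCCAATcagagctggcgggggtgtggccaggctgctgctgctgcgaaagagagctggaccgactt
Chst2: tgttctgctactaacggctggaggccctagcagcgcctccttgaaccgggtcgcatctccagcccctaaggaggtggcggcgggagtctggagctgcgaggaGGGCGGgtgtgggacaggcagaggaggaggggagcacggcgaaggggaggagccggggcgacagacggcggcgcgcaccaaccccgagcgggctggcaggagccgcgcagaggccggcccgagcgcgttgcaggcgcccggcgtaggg
Chst3: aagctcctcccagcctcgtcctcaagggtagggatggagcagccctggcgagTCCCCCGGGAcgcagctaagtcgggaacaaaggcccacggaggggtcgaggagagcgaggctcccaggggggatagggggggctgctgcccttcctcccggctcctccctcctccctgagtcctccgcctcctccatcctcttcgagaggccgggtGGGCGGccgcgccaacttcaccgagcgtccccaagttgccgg
Chst12: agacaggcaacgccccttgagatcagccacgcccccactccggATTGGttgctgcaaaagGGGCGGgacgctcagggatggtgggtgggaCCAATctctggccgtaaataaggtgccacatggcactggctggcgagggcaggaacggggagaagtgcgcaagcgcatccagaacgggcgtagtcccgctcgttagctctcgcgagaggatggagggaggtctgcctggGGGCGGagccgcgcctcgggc
Ust: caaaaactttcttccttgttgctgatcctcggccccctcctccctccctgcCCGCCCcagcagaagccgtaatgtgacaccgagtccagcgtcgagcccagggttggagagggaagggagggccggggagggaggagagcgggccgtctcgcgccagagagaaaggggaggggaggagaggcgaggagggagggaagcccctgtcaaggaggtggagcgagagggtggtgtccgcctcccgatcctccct

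The motifs searched were the TATA box (TATAAA), the CCAAT box, the GC box (GGGCGG), AP-1 (TGANTCA), the cyclic AMP response element CRE (TGACGTCA), NF-kB (GGGA, any base, TTTCC) and an EBF motif (TCCC, any pair of bases, GGGA). N stands for any base, and the letters of the CRE do not hold those of AP-1. The Has1 window held a CRE 83 bases before the start and a CCAAT box at 203. Windows of chromosome 18, where Ndst1, Chsy3 and Chst9 lie, were left out of all counts given here. Of all 32851 other promoter windows of this length, 1.55% held the CRE and 33.9% a CCAAT box. Ugdh held GC boxes 72 and 144 bases before the start, and 32.7% of all windows held one. The Extl1 window held a CCAAT box at 64, and Chst2 a GC box at 148. Chst3 held an EBF motif at 198, found in 0.779% of all windows, and a GC box at 42. Chst12 held GC boxes at 21 and 190 and CCAAT boxes at 160 and 207, and Ust a GC box at 199. Of 41 members with a window, 4 held the CRE (Chpf, Has1, Hs3st2 and Hs3st3a1), 29 the GC box and 19 the CCAAT box. A member was counted if any of its windows held the motif, which is unlike the shares of single windows. Of the 41, 33 had a window at the deposited start site. Chst1, Chst15, Chsy1, Dse, Glce, Hs3st3a1, Hs3st4 and Ndst3 did not. The TATA box, in 12.4% of all windows, was in 2 members, AP-1, in 6.75%, was in 2, NF-kB, in 0.356%, was in 0, and the EBF motif was in Chst3 and Hs3st4. These windows were richer in G and C in the members shown, at 53.2% for Extl1 to 72.8% for Chst2, than the median window, at 52.4%. A match is a description of letters and not of binding.

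Of the 53 genes, 46 had enough reads to be tested. Between thymus and bone, 30 of 46 passed the test, 17 higher and 13 lower in thymus, where 32.6% of all genes passed (16.5% higher and 16.1% lower). Between thymus and skin, 27 passed, 9 higher and 18 lower in thymus, against 37.6% of all genes (19.3% higher and 18.3% lower). Between bone and skin, 33 passed, 8 higher and 25 lower in bone, against 47.1% of all genes (23.7% higher and 23.4% lower). These directions depended on the scaling. With library size only, 18 were higher and 6 lower in thymus than skin, beside 46.2% and 7.92% of all genes, and 12 were higher and 10 lower in bone than skin, beside 47.8% and 8.9%. On RPKM, 17 of 41 members tested were higher and 8 lower in thymus than skin, beside 52.8% and 9.56% of all genes. There 11 were higher and 12 lower in bone than skin, beside 50.6% and 12.5%. The median log2 fold change over the 46 genes was 0.12 between thymus and bone, -0.42 between thymus and skin and -0.74 between bone and skin, beside 0.02, 0.03 and 0.03 over all genes. Here apart means a pass against each of the other tissues, both times by 2-fold or more and with 1 sign. So read, 6 members were higher in thymus (4.05% of all genes) and 3 lower (3.83%), 6 were higher in bone (6.51%) and 6 lower (3.86%), and 4 were higher in skin (5.00%) and 2 lower (7.55%).

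**Figure D1:**
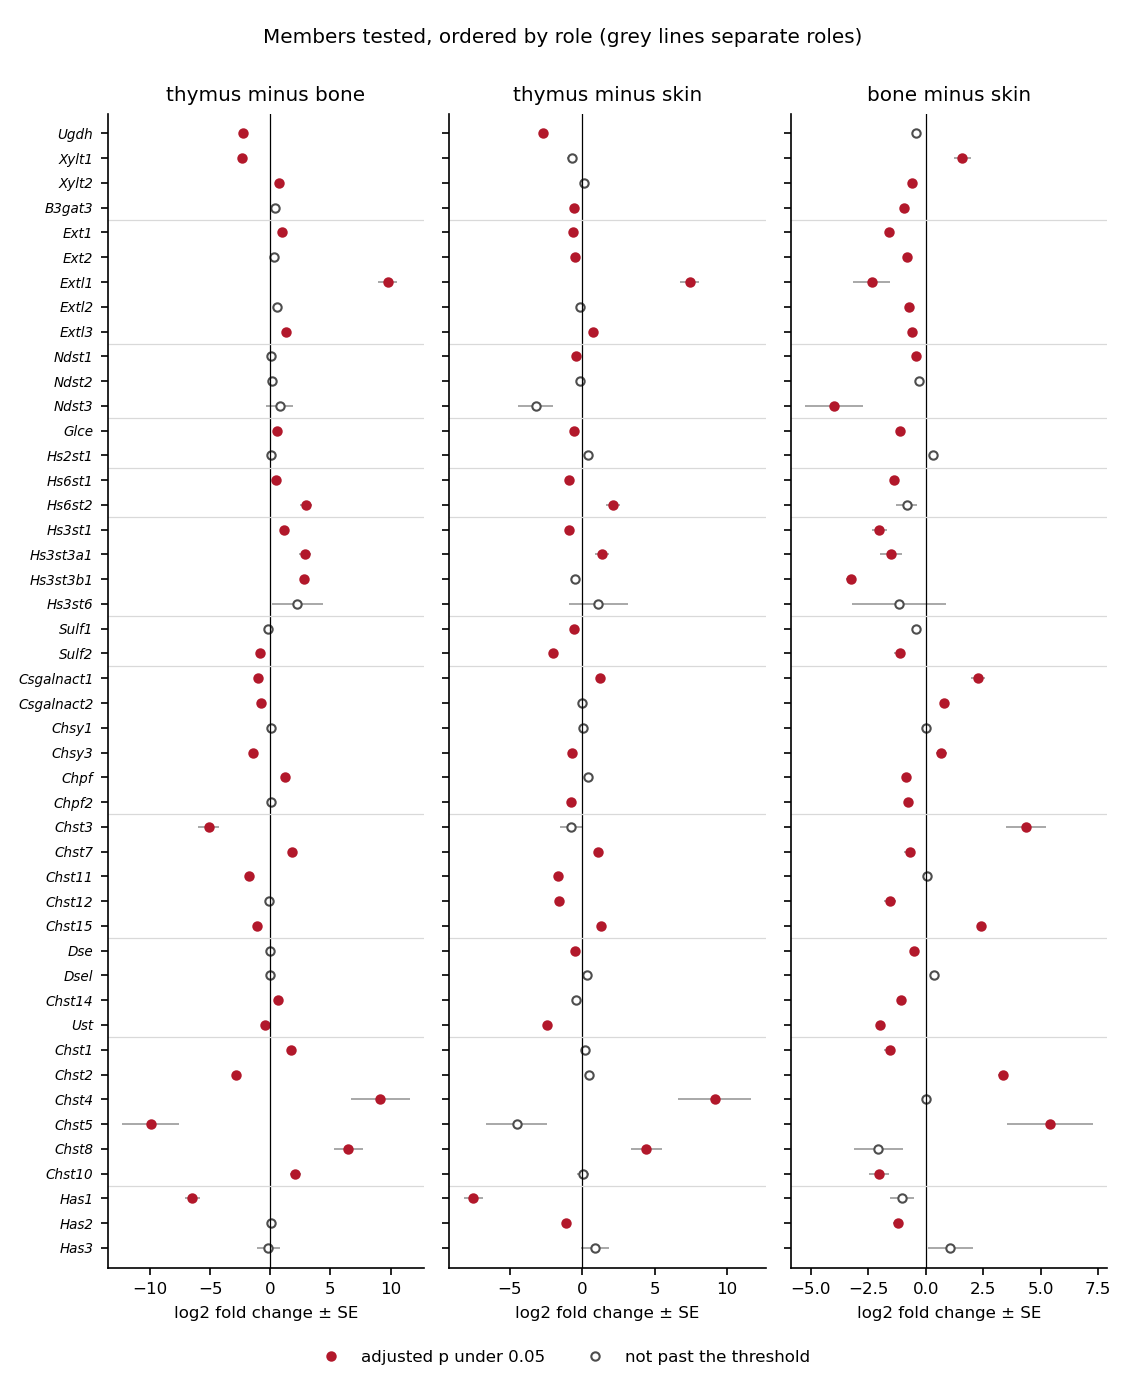
Log2 fold changes (x axis) of the 46 members tested in the 3 comparisons, one row per gene in the order of their roles; bars are the SE, filled points passed the test at an adjusted p under 0.05 and open points did not. Has1 lies far to the left and Extl1 far to the right in both thymus comparisons; Chst4 and Chst5, drawn near the edges, had 0 reads in at least 1 tissue, so their fitted values are no measure of size.

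Has1, 1 of 3 hyaluronan synthases, and Ugdh, which supplies a sugar donor, had far lower levels in thymus than in bone or skin. Has1, a synthase of hyaluronan, stood at 2.76, 10.5 and 2.17 CPM in thymus 2, 3 and 1-3, at 535, 343 and 519 CPM in bone 1 to 3 and at 798, 929.6 and 1124 CPM in skin 1 to 3. All thymus libraries were far below all others, and bone and skin did not overlap either. Has1 was lower in thymus than in bone (log2 fold change -6.50 ± 0.63, edgeR adjusted p = 4.53e-05) and than in skin (-7.53 ± 0.66, adjusted p = 1.84e-05), while bone and skin did not pass (-1.03 ± 0.50, adjusted p = 0.121) unless thymus 3 was left out or in 2 other settings. Per gene length, Has1 ranked first or second among the 53 genes in each bone library, first in each skin library, and from rank 30 to rank 40 in the thymus libraries. Both calls against thymus held under all 20 alternatives run.

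Has2, the synthase needed for embryonic hyaluronan, stood at 50.7, 51.9 and 46.9 CPM in thymus, 38.3, 36.1 and 67.5 in bone and 104, 99.95 and 119.8 in skin. The skin libraries were above all others, and thymus and bone overlapped. Has2 was higher in skin than in thymus (-1.11 ± 0.21, adjusted p = 0.00143) and than in bone (-1.19 ± 0.21, adjusted p = 0.000721), and with library size only neither call held. Has3, the third synthase, ranged from 0.191 to 1.3 CPM over all 9 libraries and passed in no comparison. The share of Has1 in the summed RPKM of the 3 synthases was 10.5, 29.3 and 8.81% in thymus, 96.6, 94.9 and 94% in bone and 94.1, 95 and 95% in skin. Has2 made up 82.7 ± 11% in thymus, 4.76 ± 1.30% in bone and 5.28 ± 0.55% in skin (SD, n = 3). The thymus shares did not overlap those of bone or skin (exact permutation test, two-sided p = 0.1, the smallest that 3 against 3 can give), and thymus 3 held the largest Has1 share of its group.

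Ugdh makes UDP-glucuronic acid, the sugar donor that hyaluronan, heparan sulfate and chondroitin sulfate all need. It stood at 79.4, 119.8 and 90.7 CPM in thymus, 501, 399 and 538 in bone and 494, 667 and 749.5 in skin. Every thymus library was below every other library, and bone and skin overlapped. The log2 fold change was -2.31 ± 0.21 against bone (adjusted p = 7.87e-06) and -2.72 ± 0.21 against skin (adjusted p = 1.94e-06), both held in all 20 alternatives, and bone and skin did not pass (-0.41 ± 0.20, adjusted p = 0.113). Per gene length Ugdh was second in the mean over bone (204 ± 26.4 RPKM) and over skin (180.5 ± 34.5 RPKM), and sixth in thymus (40.5 ± 10.2 RPKM).

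Of 17 genes outside the chosen set that supply nucleotide sugars and activated sulfate, 6 were lower and 1 higher in thymus than in bone, beside 16.1% and 16.5% of all genes. Against skin, 8 were lower and 1 higher in thymus, beside 18.3% and 19.3% of all genes, and with library size only 4 were lower and 4 higher, beside 7.92% and 46.2%. Ugp2, which makes UDP-glucose, the substrate of Ugdh, was lower in thymus than in bone (-1.86 ± 0.17, adjusted p = 6.98e-06) and than in skin (-1.35 ± 0.16, adjusted p = 5.55e-05). On the branch to UDP-N-acetylglucosamine, Gnpnat1 was lower in thymus than in bone (-1.89 ± 0.16) and than in skin (-1.14 ± 0.16). Uap1, the last step of that branch, was lower by similar amounts against bone (-1.92 ± 0.26) and skin (-1.91 ± 0.26). Gfpt2, an isoform of its first enzyme, stood at 186 to 241 CPM in thymus, 390.1 to 527 in bone, and in skin 753 to 1444, and differed between all 3 tissues. These calls of Ugp2, Gnpnat1, Uap1 and Gfpt2 against thymus also held with library size only. The sulfate donor synthases Papss1 and Papss2 passed neither against bone (adjusted p = 0.0509 and 0.352) nor against skin (0.954 and 0.0516).

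Among 9 tested genes of hyaluronan binding, 5 were lower and 1 higher in thymus than in bone (16.1% and 16.5% of all genes). Against skin, 4 were lower and 1 higher in thymus (18.3% and 19.3% of all genes), and with library size only 3 and 2 (7.92% and 46.2%). Tnfaip6, which transfers heavy chains onto hyaluronan, stood at 26.7 to 51 CPM in thymus, 177 to 305 in bone, and in skin 628 to 871, and was lower in thymus than in either (-2.64 ± 0.28 and -4.17 ± 0.30). Cd44, the main hyaluronan receptor, was highest in bone (433 to 732 CPM) and lower in thymus (109 to 136) than in bone (-2.27 ± 0.22, adjusted p = 1.09e-05). Its difference between thymus and skin (-0.96 ± 0.21, adjusted p = 0.00331) was lost with library size only. Hapln1, a link protein that ties hyaluronan to aggrecan, was highest in bone (23.5 to 50.2 CPM), at 2.5 to 4.52 in thymus and at 0.0675 to 0.161 in skin.

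Immediate early genes, which cells switch on soon after stress such as tissue digestion, were also low in thymus; the list of 10 was chosen after their values had been seen. Their summed level ranged from 4758 to 6771 CPM in thymus, 12350 to 14440 in bone, and in skin 17340 to 21290. Of the 10, 8 were lower and 1 higher in thymus than in bone, beside 16.1% and 16.5% of all genes. The higher gene was Jun (0.41 ± 0.14, edgeR adjusted p = 0.0418), and Junb did not pass (adjusted p = 0.1). Against skin 10 were lower, beside 18.3%, and with library size only 8, beside 7.92%. Atf3, a stress-induced factor of this list, stood at 61, 116 and 18.6 CPM in thymus 2, 3 and 1-3. The part of these genes, and of the unlike preparation of the tissues, in the low Has1 level was not tested.

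**Figure D2:**
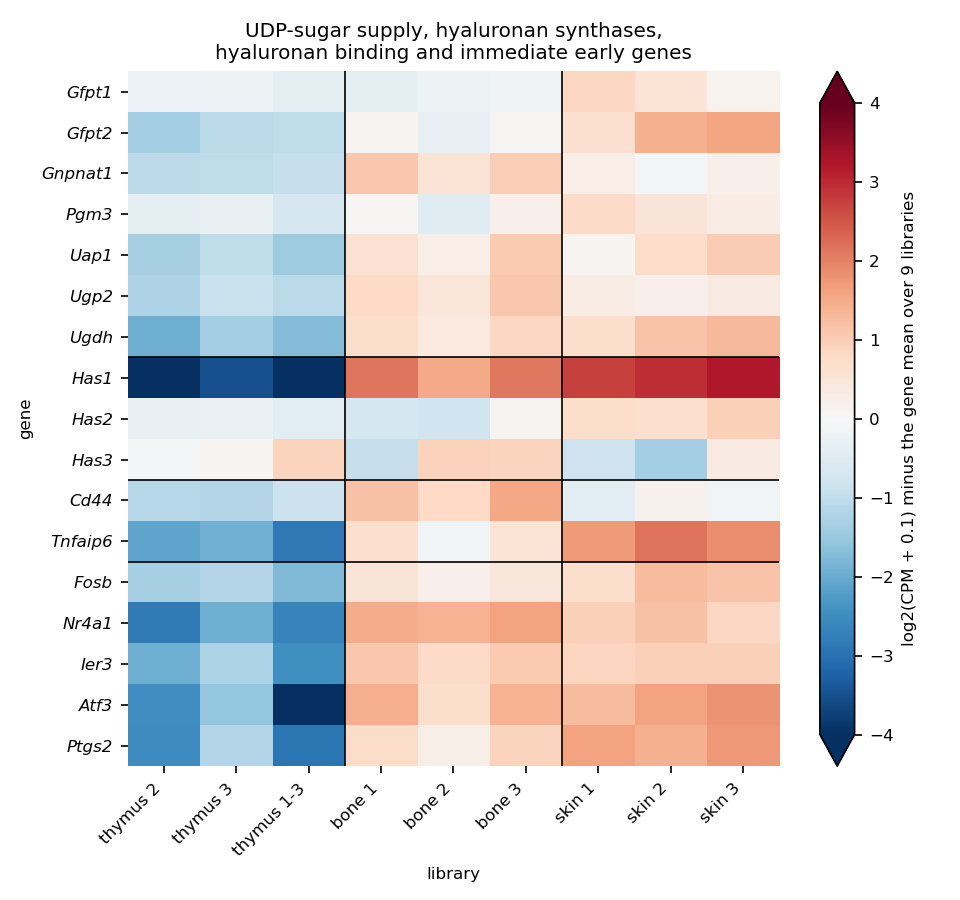
Level of each gene (rows) in each library (columns) as log2(CPM + 0.1) minus the gene's mean over the 9 libraries; black lines part the sugar donor genes, the synthases, 2 hyaluronan binding genes and 5 immediate early genes, and the tissues. Has1, Tnfaip6 and the 5 immediate early genes drawn are low in all 3 thymus libraries. Has2 and Has3 did not pass between thymus and bone, though Has2 was lower in thymus than in skin. Egr1, Fos, Jun, Junb and Klf4 of the list are not drawn, and Jun was higher in thymus than in bone. Colours stop at 4 on either side.

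Of the linker enzymes, Xylt1 was highest in bone. Xylt1 and Xylt2 both add the first xylose to core proteins. Xylt1 stood at 8.59, 4.18 and 5.06 CPM in thymus, 19.5, 27.5 and 42.1 in bone and 11, 12.2 and 6.32 in skin. The bone libraries were above all others. Xylt1 was lower in thymus than in bone (-2.32 ± 0.37, adjusted p = 0.000669) and higher in bone than in skin (1.59 ± 0.36, adjusted p = 0.00397). Xylt2 went the other way between thymus and bone, at 31.3 to 37.3 CPM in thymus and 16.5 to 22.6 in bone (0.73 ± 0.16, adjusted p = 0.00467). Xylt2 was lower in bone than skin (-0.61 ± 0.16, adjusted p = 0.00873), but at 0.08 with library size only. Thymus and skin did not pass (0.12 ± 0.16, adjusted p = 0.604), but with library size only Xylt2 was higher in thymus (0.76, adjusted p = 0.00214), and it was on RPKM too. Xylt1 made up 15.8 ± 3.92% of the pair's RPKM in thymus, 60.5 ± 12.4% in bone and 25.4 ± 6.11% in skin. B3gat3, which closes the linker with glucuronic acid, ranged from 23.6 to 30.1 CPM in bone, from 26.4 to 44.5 in thymus and from 46.6 to 55.2 in skin. B3gat3 was lower in thymus (-0.57 ± 0.19, adjusted p = 0.0309) and in bone (-0.92 ± 0.19, adjusted p = 0.00171) than in skin, but with library size only the thymus value was 0.06 and the bone call was lost. Of 3 linker genes outside the chosen set, B4galt7 and B3galt6 passed in no comparison. Fam20b, a xylose kinase, was lower in thymus (-0.33 ± 0.12, adjusted p = 0.0488) and in bone (-0.45 ± 0.12, adjusted p = 0.00963) than in skin, and with library size only 0 of the 3 genes were.

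Among the enzymes that polymerise heparan sulfate, Extl1 had nearly all of its reads in thymus. Extl1, an exostosin-like N-acetylglucosamine transferase, stood at 59.4, 41.8 and 37.5 CPM in thymus, 0.0291, 0.017 and 0.119 in bone and 0.0562, 0.234 and 0.519 in skin, or 15894, 16 and 66 reads per tissue. No bone or skin library came near a thymus library. The log2 fold change was 9.76 ± 0.77 against bone (adjusted p = 1.12e-05) and 7.41 ± 0.67 against skin (adjusted p = 2.01e-05), and both calls held under all 20 alternatives. Between bone and skin it rested on few reads (-2.35 ± 0.82, adjusted p = 0.0383), and this call was lost in 6 of 9 fits that left out a library and in 6 other settings. In thymus Extl1 made up 23.9 ± 3.23% of the RPKM of Extl1, Extl2 and Extl3, against 0.0813 ± 0.0816% in bone and 0.259 ± 0.242% in skin.

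Extl3, which starts the heparan sulfate chain, was also highest in thymus, at 144 to 172 CPM against 57.1 to 67.3 in bone, and in skin 83 to 106. It passed against bone (1.32 ± 0.14, adjusted p = 1.97e-05) and against skin (0.73 ± 0.13, adjusted p = 0.00115). Its lower level in bone than in skin (-0.59 ± 0.13) was 0.10 with library size only. Ext1, a subunit of the polymerase, ranged from 81.8 to 99.4 CPM in bone, 164 to 188 in thymus and 239 to 282 in skin, with no overlap. Ext1 was higher in thymus than in bone (0.94 ± 0.13, adjusted p = 0.000214) and lower in bone than skin (-1.57 ± 0.13, adjusted p = 3.52e-06). Against skin its thymus level was lower (-0.64 ± 0.13), a call that neither library size only nor RPKM gave. Ext2, the other subunit, was at 82.6 to 114 CPM in bone, 118 to 119.9 in thymus and 156 to 185 in skin. It did not pass between thymus and bone (0.29 ± 0.14, adjusted p = 0.123). Ext2 was lower in thymus than skin (-0.52 ± 0.14), but 0.11 with library size only and 0.03 on RPKM, and lower in bone than skin (-0.81 ± 0.14), a call lost in those settings. Extl2 stood at 31.5 to 32.1 CPM in thymus, 15.2 to 27.8 in bone, and in skin 33.9 to 38.1 and passed only between bone and skin (-0.70 ± 0.19, adjusted p = 0.0102), a call that neither library size only nor RPKM gave. The summed RPKM of these 5 genes was 139.7 ± 3.05 in thymus, 77.5 ± 1.13 in bone and 113 ± 7.80 in skin. On log2(RPKM + 1), which carries no TMM factor, thymus minus skin moved up by a median of 0.49 over all genes. This sum therefore does not settle the order of thymus and skin.

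Among the N-deacetylase/N-sulfotransferases, which open the sulfation of heparan sulfate, Ndst1 had the largest RPKM share in every library. Ndst1 stood at 134 to 149.9 CPM in thymus, 132 to 148 in bone, and in skin 163 to 218, and Ndst2 at 25 to 32.5, 23 to 29.2 and 29.2 to 33.4. Neither passed between thymus and bone (adjusted p = 0.862 and 0.487). Ndst1 was lower in thymus (-0.40 ± 0.13, adjusted p = 0.0316) and bone (-0.44 ± 0.13, adjusted p = 0.0169) than in skin, but with library size only the values were 0.23 and 0.25, and on RPKM 0.14 and 0.11. Ndst2 did not pass against skin (-0.15 ± 0.16 in thymus), where library size only gave 0.48 and RPKM 0.37. Ndst1 made up 76 ± 2.27% of the family's RPKM in thymus, 77.7 ± 2.79% in bone and 78 ± 3.62% in skin, and these shares overlapped. Ndst3, an isoform known from brain, stood at 0.252, 0.301 and 0.559 CPM in thymus, 0, 0.554 and 0.0868 in bone and 3.29, 2.1 and 4.88 in skin. The skin libraries were above all others. Ndst3 was lower in bone than skin (-3.98 ± 1.25, adjusted p = 0.0209), a call lost in 2 of the 9 fits that left out a library. Against thymus it did not pass (-3.21 ± 1.21, adjusted p = 0.0553), but did in 6 of 18 alternatives, DESeq2 among them. Ndst4 had 4 reads in thymus, 0 in bone and 50 in skin, which is at least 21.4-fold higher in skin than in bone by a floor of 3 reads over the group.

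Glce, which epimerises glucuronic acid to iduronic acid, ranged from 36.3 to 38.7 CPM in bone, 46.2 to 64.9 in thymus and 70.6 to 91.3 in skin, with no overlap. Glce was lower in bone than in thymus (0.52 ± 0.15, adjusted p = 0.0204) and than in skin (-1.11 ± 0.15, adjusted p = 0.000109), and the thymus call was lost in 3 of 9 fits that left out a library. Glce was lower in thymus than skin (-0.59 ± 0.15, adjusted p = 0.00911), but 0.04 with library size only. Hs2st1, the only 2-O-sulfotransferase of heparan sulfate, was at 40.2 to 63.6 CPM in thymus, 39.6 to 57.6 in bone, and in skin 35 to 42.6 and passed in no comparison, although with library size only and on RPKM it was higher in thymus and bone than in skin.

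The 6-O-sulfotransferases split by tissue. These enzymes place the 6-O-sulfate that many growth factors need. Hs6st2 stood at 16.8, 12.9 and 9.88 CPM in thymus, 2.25, 2.15 and 0.651 in bone and 4.28, 2.87 and 1.82 in skin. The thymus libraries were above all others, and bone and skin overlapped. Hs6st2 was higher in thymus than in bone (2.97 ± 0.49, adjusted p = 0.000657) and than in skin (2.14 ± 0.47, adjusted p = 0.00377), in all 20 alternatives. Hs6st1 had its highest level in skin, at 59.7 to 82.3 CPM against 33.9 to 41.2 in thymus and 25.3 to 28.5 in bone. Hs6st1 was lower in thymus (-0.94 ± 0.15, adjusted p = 0.000421) and in bone (-1.37 ± 0.15, adjusted p = 2.18e-05) than in skin, the thymus call being lost with library size only. The call between thymus and bone (0.43 ± 0.15, adjusted p = 0.0436) was lost in 6 of 9 fits that left out a library and in 6 other settings. Of the Hs6st1 windows 8.01% also occur in Gm37335. Hs6st2 made up 24.4 ± 6.16% of the family's RPKM in thymus, 5.17 ± 2.76% in bone and 3.74 ± 1.90% in skin. Hs6st3 had 2, 2 and 24 reads in thymus, bone and skin, a ratio of 16.8 (95% counting interval 4.16 to 146) between skin and thymus.

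The 3-O-sulfotransferases, which finish rare sites such as the antithrombin site, were low in bone. Hs3st3b1 stood at 32.7, 22.6 and 22.3 CPM in thymus, 3.44, 3.85 and 4.01 in bone and 39, 40.5 and 28.7 in skin. The bone libraries were below all others. Hs3st3b1 was lower in bone than in thymus (2.78 ± 0.21, adjusted p = 2.24e-06) and than in skin (-3.26 ± 0.21, adjusted p = 5.97e-07), in all 20 alternatives, and thymus and skin did not pass (-0.48 ± 0.20, adjusted p = 0.0742). Hs3st3a1 stood at 16.9, 9.8 and 12.8 CPM in thymus, 0.543, 2.84 and 1.91 in bone and 5.33, 5.39 and 4.49 in skin. Its groups did not overlap. Hs3st3a1 was higher in thymus than in bone (2.90 ± 0.49, adjusted p = 0.000892) and lower in bone than skin (-1.52 ± 0.47, adjusted p = 0.0201). The call between bone and skin was lost without skin 2, with library size only (adjusted p = 0.162) and in 2 settings on RPKM. Its call against skin (1.38 ± 0.47, adjusted p = 0.0364) was lost in 6 of 9 fits that left out a library. Of the 100-base windows of Hs3st3a1, 39% also occur in other genes, Hs3st3b1 and an antisense gene among them, so its reads are uncertain; for Hs3st3b1 it was 6.28%.

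Hs3st1, the enzyme of the antithrombin site, stood at 9.78, 12.7 and 14.3 CPM in thymus, 8.11, 4.58 and 4.26 in bone and 14.1, 28.5 and 25.8 in skin. Bone libraries were below all others, while thymus and skin overlapped. Hs3st1 was lower in bone than skin (-2.01 ± 0.32, adjusted p = 0.000337) and than in thymus (1.12 ± 0.31, adjusted p = 0.0174), the latter call being lost in 3 of 9 fits that left out a library. The call between thymus and skin (-0.89 ± 0.31, adjusted p = 0.0402) was lost in 5 of 9, with library size only and on RPKM. Hs3st6 had 66, 14 and 23 reads per tissue and passed in no comparison, Hs3st5 had 18 reads, all in skin 1, and Hs3st2 and Hs3st4 had 0 reads in all libraries. The summed RPKM of the family was 16.9 ± 0.96 in thymus, 4.70 ± 0.74 in bone and 14.8 ± 2.48 in skin. As RPKM carries no TMM factor, this sum does not settle the order of thymus and skin.

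Sulf1 and Sulf2 are endosulfatases that remove 6-O-sulfates from heparan sulfate outside the cell. Sulf2 stood at 87.8, 166 and 182 CPM in thymus, 270.1, 297 and 223 in bone and 588, 634 and 515 in skin. The 3 groups did not overlap, and thymus 2 had the lowest level. Sulf2 was lower in thymus than in bone (-0.86 ± 0.24, adjusted p = 0.0156), a call lost when bone 2 was left out. Sulf2 was lower in thymus than skin (-2.0 ± 0.24, adjusted p = 6.14e-05), in all 20 alternatives, and in bone than in skin (-1.14 ± 0.24, adjusted p = 0.00213), a call lost with library size only and in 2 settings on RPKM. Sulf1 ranged from 186 to 298 CPM in thymus, 265 to 319.6 in bone, and in skin 382 to 390.4. Sulf1 was lower in thymus than skin (-0.60 ± 0.17, adjusted p = 0.0167), but 0.03 with library size only. Sulf2 made up 39.3 ± 3.66% of the pair's RPKM in thymus, 51.5 ± 6.10% in bone and 63.5 ± 2.65% in skin, and the shares of the 3 tissues did not overlap (exact permutation test, two-sided p = 0.1 for each pair, the smallest possible).

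**Figure D3:**
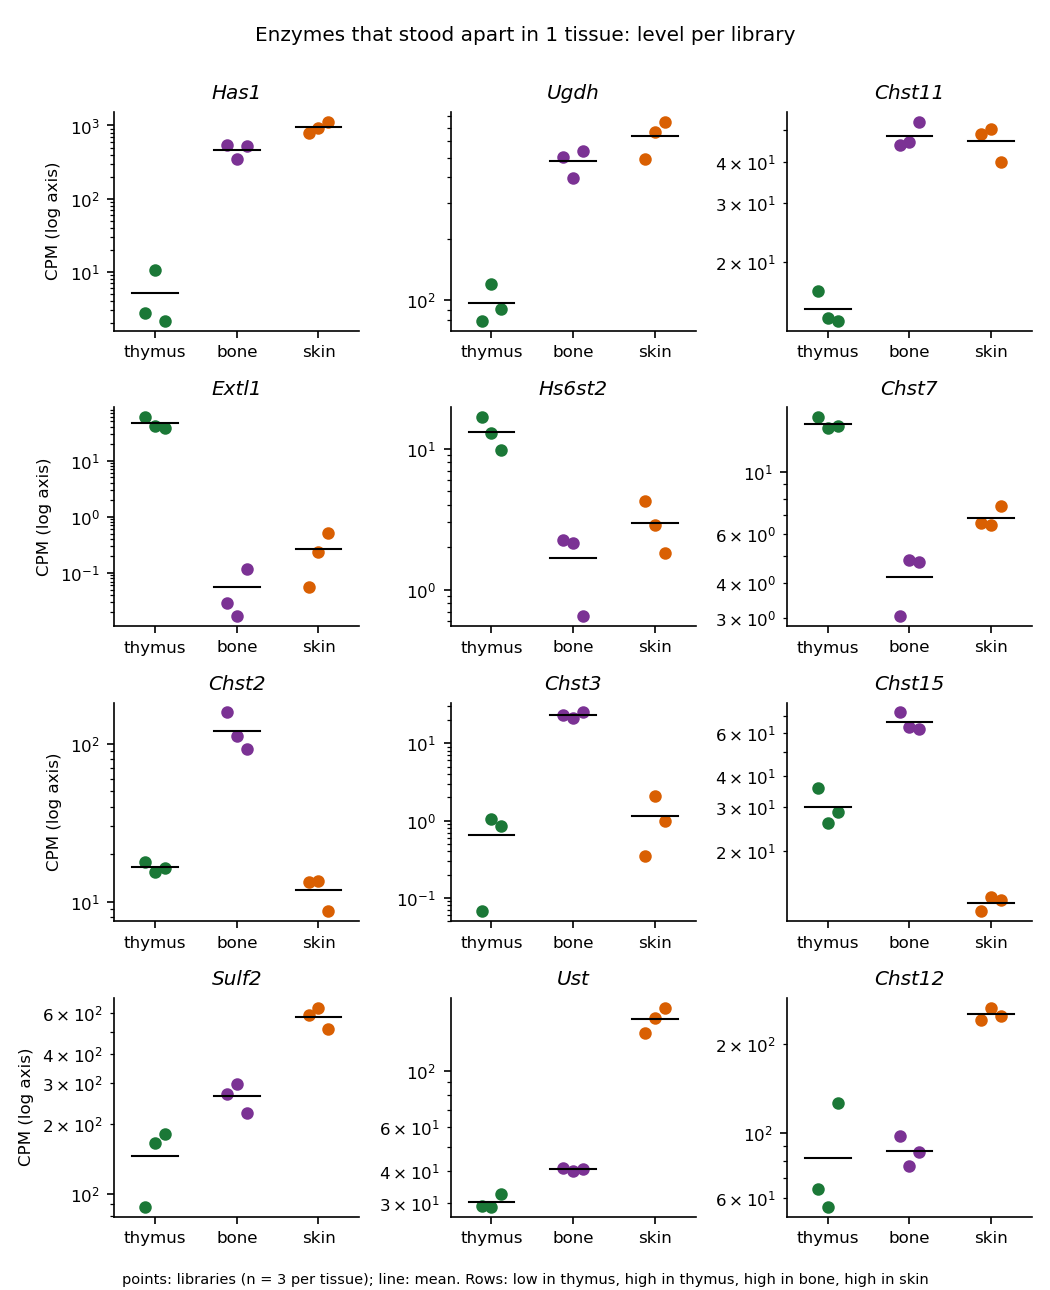
Level in CPM on a log axis (y) by tissue (x) for 12 enzymes; points are libraries, n = 3 per tissue, and lines the mean. Has1, Ugdh and Chst11 are low in thymus, Extl1, Hs6st2 and Chst7 high in thymus, Chst2, Chst3 and Chst15 high in bone, and Sulf2, Ust and Chst12 high in skin.

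Among the genes of the chondroitin chain, both chain starters were highest in bone, whereas Chpf was lowest there. Csgalnact1, which starts the chain with N-acetylgalactosamine, stood at 23.8, 18.5 and 23.9 CPM in thymus, 44.9, 29.8 and 62.8 in bone and 6.79, 8.89 and 12.5 in skin. The 3 groups did not overlap, with bone highest and skin lowest. Csgalnact1 was higher in bone (2.28 ± 0.29, adjusted p = 8.12e-05) and thymus (1.23 ± 0.28, adjusted p = 0.00535) than in skin, in all 20 alternatives. The difference between thymus and bone (-1.06 ± 0.28, adjusted p = 0.0137) was lost when bone 3 or thymus 3 was left out. Csgalnact2 stood at 61.5 to 80.8 CPM in thymus, 109 to 143 in bone, and in skin 61.7 to 83. Csgalnact2 was higher in bone than in thymus (-0.80 ± 0.16, adjusted p = 0.00271) and than in skin (0.79 ± 0.16, adjusted p = 0.00192). Thymus and skin were at -0.01 ± 0.16, and at 0.62 with library size only and 0.51 on RPKM, where it passed.

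Chpf, a polymerisation partner of the synthases, led all 53 genes in thymus at 89.2 ± 5.85 RPKM. Chpf was 255 to 304 CPM in thymus, 105 to 132 in bone, and in skin 187 to 263. Chpf was higher in thymus than in bone (1.23 ± 0.16, adjusted p = 0.000119) and lower in bone than skin (-0.84 ± 0.16, adjusted p = 0.00114), which did not hold with library size only or on RPKM. Its difference between thymus and skin did not pass (0.40 ± 0.16, adjusted p = 0.0719), but did with library size only (1.03, adjusted p = 0.000146) and on RPKM. Chpf2 ranged from 61.7 to 84.1 CPM in thymus, 70.9 to 78.1 in bone, and in skin 113 to 134. Chpf2 was lower in thymus (-0.75 ± 0.14) and in bone (-0.77 ± 0.14) than in skin, calls lost with library size only. Of its windows 39.6% lie in Smarcd3 on the other strand, and without the strand setting their reads cannot be told apart. Chsy1, a chondroitin synthase, stood at 44.4 to 59.8 CPM over all 9 libraries and passed in no comparison, although with library size only and on RPKM it was higher in thymus and bone than in skin. Chsy3, another synthase, was highest in bone at 16.5 to 19.2 CPM, with 6.3 to 7.35 in thymus and 7.8 to 14.9 in skin. Chsy3 was lower in thymus than in bone (-1.42 ± 0.24, adjusted p = 0.000669). Its call between bone and skin (0.68 ± 0.23, adjusted p = 0.0304) and that between thymus and skin (-0.74 ± 0.23, adjusted p = 0.0253) were each lost in 4 of 9 fits that left out a library, and the latter also with library size only and on RPKM.

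The sulfotransferases of chondroitin differed in their isoforms between the tissues. Chst3 and Chst7 both sulfate the C6 hydroxyl of N-acetylgalactosamine. Chst3 stood at 0.0671, 1.06 and 0.843 CPM in thymus, 23.4, 21.1 and 25 in bone and 0.348, 2.05 and 0.992 in skin. All bone libraries were far above all others. Chst3 was lower in thymus than in bone (-5.14 ± 0.89, adjusted p = 0.00178) and higher in bone than in skin (4.37 ± 0.86, adjusted p = 0.00236), in all 20 alternatives, and thymus and skin did not pass (-0.77 ± 0.79, adjusted p = 0.489).

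Chst7 went the opposite way, at 15.7, 14.3 and 14.6 CPM in thymus, 3.06, 4.83 and 4.76 in bone and 6.57, 6.45 and 7.53 in skin. The 3 groups did not overlap. Chst7 was higher in thymus than in bone (1.82 ± 0.24, adjusted p = 0.000116) and than in skin (1.12 ± 0.23, adjusted p = 0.00255), in all 20 alternatives. The call between bone and skin (-0.70 ± 0.23, adjusted p = 0.0266) was lost on RPKM and with library size only. Chst3 made up 0.147, 2.58 and 1.98% of the pair's RPKM in thymus, 73.2, 60.5 and 64.8% in bone and 1.84, 10 and 4.36% in skin.

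Chst11 and Chst12 sulfate the C4 hydroxyl. Chst11 stood at 16.3, 13.5 and 13.3 CPM in thymus, 44.9, 45.9 and 52.8 in bone and 48.7, 50.2 and 39.8 in skin. The thymus libraries were below all others, and bone and skin overlapped. Chst11 was lower in thymus than in bone (-1.73 ± 0.15, adjusted p = 6.05e-06) and than in skin (-1.68 ± 0.15, adjusted p = 5.53e-06), calls that held in all 20 alternatives, though not both by 2-fold on log2(RPKM + 1). Bone and skin did not pass (0.05 ± 0.15, adjusted p = 0.804), but with library size only Chst11 was higher in bone (0.74, adjusted p = 0.00136), and it was on RPKM too. Chst12 stood at 64.1, 56 and 126 CPM in thymus, 97.1, 77 and 86 in bone and 242, 266 and 250 in skin. All skin libraries were above all others, and thymus 1-3 lay above all bone libraries while the other thymus libraries lay below them. Chst12 was lower in thymus (-1.62 ± 0.26, adjusted p = 0.000619) and in bone (-1.54 ± 0.26, adjusted p = 0.000655) than in skin, in all 20 alternatives. Without thymus 1-3 it also passed between thymus and bone. Chst13, another 4-O-sulfotransferase, had 0, 36 and 6 reads in thymus, bone and skin, at least 13.1-fold more in bone than in thymus. The 6-O enzymes Chst3 and Chst7 together took 13.9 ± 4.41% of the RPKM of 6-O and 4-O enzymes in thymus, 9.17 ± 1.29% in bone and 2.20 ± 0.21% in skin. Skin did not overlap the other tissues, and thymus and bone did overlap (exact permutation test, two-sided p = 0.3).

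Chst15, which adds a further 6-O-sulfate to 4-O-sulfated units to make chondroitin sulfate E, stood at 36, 25.9 and 28.6 CPM in thymus, 72.4, 63.5 and 62.2 in bone and 11.4, 13.1 and 12.7 in skin. The 3 groups did not overlap. Chst15 was lower in thymus than in bone (-1.13 ± 0.15, adjusted p = 0.000143) and higher than in skin in both thymus (1.29 ± 0.15, adjusted p = 4.76e-05) and bone (2.42 ± 0.16, adjusted p = 5.85e-07), in all 20 alternatives. Of its windows 6.33% lie in Gm10584 on the other strand. Mast cells are known to make chondroitin sulfate E, and the summed level of 9 mast cell markers was 1.76 to 3.19 CPM in thymus (Tpsab1 and Ms4a2 at 0 reads), 25.9 to 56.2 in bone (Tpsab1 and Fcer1a at 0 reads) and 3.84 to 4.61 in skin (Ms4a2 and Fcer1a at 0 reads). The part of mast, myeloid and cartilage cells in the high bone levels of Chst15, Chst3, Chst2, Csgalnact1 and Xylt1 was not tested.

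**Figure D4:**
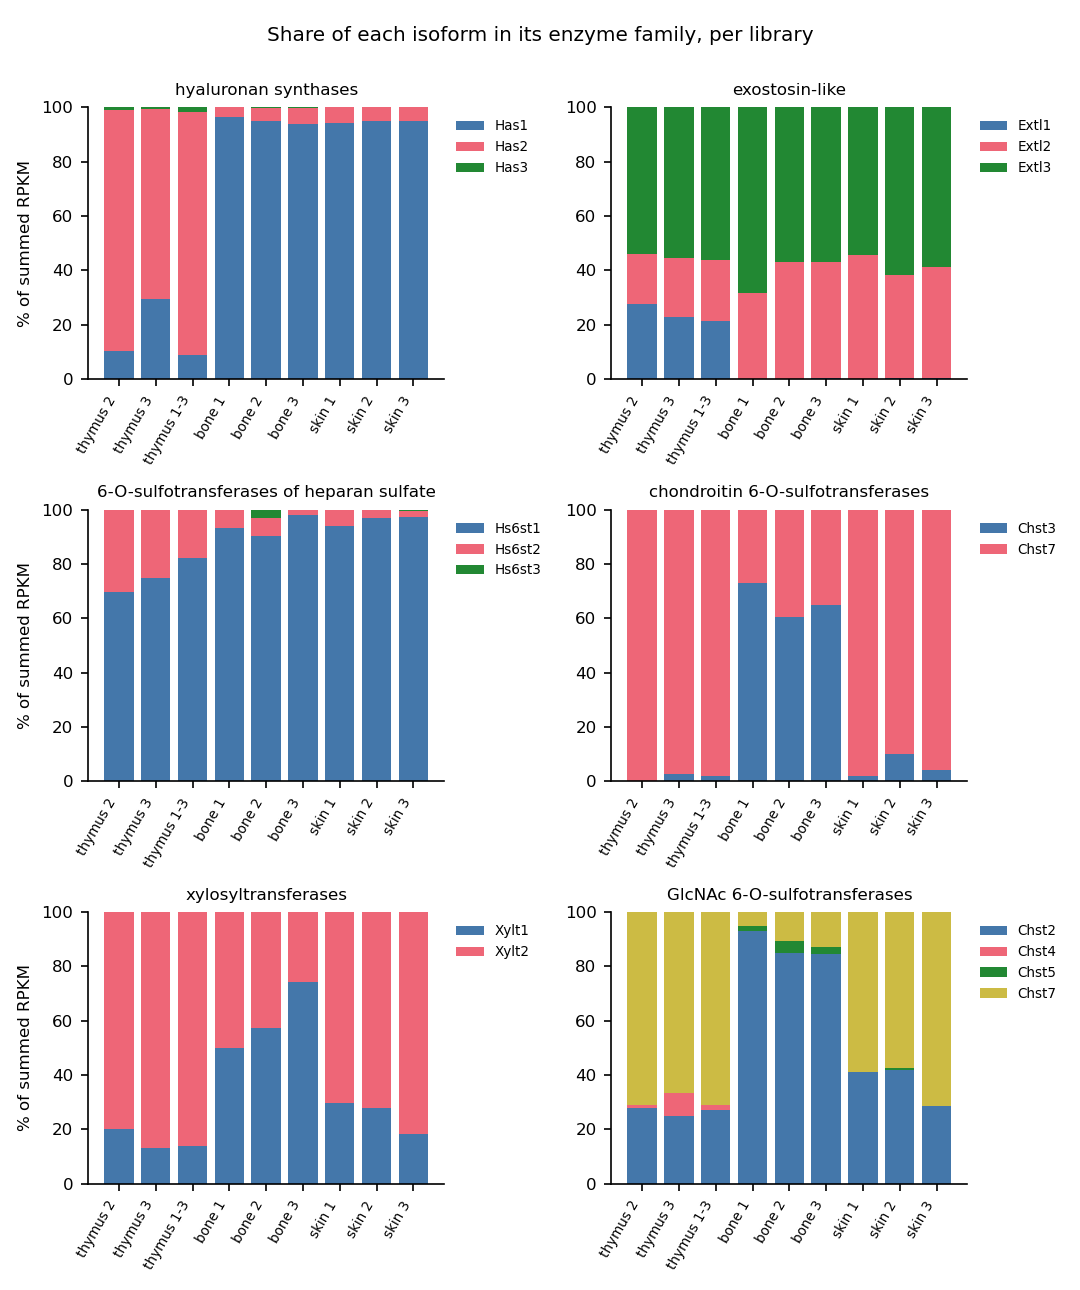
Share of each isoform (stacked bars, % of the summed deposited RPKM, y axis) in 6 enzyme families for each of the 9 libraries (x axis). Has2 takes most of the synthase bar in thymus and Has1 in bone and skin, Extl1 and Hs6st2 have their largest shares in thymus, and Chst3, Xylt1 and Chst2 have their largest shares in bone.

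Dermatan sulfate is made by the epimerases Dse and Dsel and then sulfated by Chst14 and Ust. Ust, the uronyl 2-O-sulfotransferase of this chain, stood at 29.1, 29 and 32.5 CPM in thymus, 41.1, 40.2 and 40.8 in bone and 141, 162 and 177 in skin. All skin libraries were far above the rest, and thymus lay below bone. Ust was lower in thymus (-2.41 ± 0.13, adjusted p = 1.22e-07) and in bone (-1.98 ± 0.13, adjusted p = 4.73e-07) than in skin, in all 20 alternatives. Of the 4 members higher in skin than in both other tissues, Ust alone stayed so with library size only and on RPKM. Its call between thymus and bone (-0.43 ± 0.12, adjusted p = 0.0177) was lost in 4 of 9 fits that left out a library. Dse ranged from 80.2 to 102 CPM in thymus, 75 to 108 in bone, and in skin 117 to 136. Dse was lower in thymus (-0.51 ± 0.15, adjusted p = 0.021) and in bone (-0.50 ± 0.15, adjusted p = 0.0185) than in skin, but with library size only at 0.12 and 0.18, and on RPKM at 0.04 in both. Dsel ranged from 76.2 to 94 CPM in thymus, 82.2 to 94.8 in bone, and in skin 51.2 to 81.7 and passed in no comparison, although with library size only and on RPKM it was higher in thymus and bone than in skin. Dse made up 58.4 ± 2.15% of the pair's RPKM in thymus, 57.6 ± 2.74% in bone and 71.5 ± 3.80% in skin. Chst14, the dermatan 4-O-sulfotransferase, was at 31.4 to 34.8 CPM in thymus, 17.8 to 27.8 in bone, and in skin 40.5 to 46.9. Chst14 was higher in thymus than in bone (0.63 ± 0.18, adjusted p = 0.0166), lost without bone 1 or bone 3, and lower in bone than skin (-1.06 ± 0.18, adjusted p = 0.000458), lost with library size only.

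The remaining sulfotransferases act on keratan sulfate, on selectin ligands and on N-glycans. Chst2, a N-acetylglucosamine 6-O-sulfotransferase, stood at 17.8, 15.4 and 16.3 CPM in thymus, 158, 112 and 92.7 in bone and 13.3, 13.5 and 8.68 in skin. All bone libraries were far above the rest. Chst2 was lower in thymus than in bone (-2.88 ± 0.23, adjusted p = 2.98e-06) and higher in bone than in skin (3.36 ± 0.23, adjusted p = 8.44e-07), in all 20 alternatives. Thymus and skin did not pass (0.48 ± 0.21, adjusted p = 0.0993), but did in 5 alternatives, library size only among them. Chst5, a related enzyme, had 100, 210 and 88 reads in bone, 0 in all thymus libraries, and 6 in skin, all in skin 2. This was at least 144.6-fold higher in bone than in thymus by the floor of 3 reads (adjusted p = 0.00954), and the call against skin (adjusted p = 0.0359) was lost in 4 of 9 fits that left out a library. Chst2 made up 26.6 ± 1.54% of the RPKM of Chst2, Chst4, Chst5 and Chst7 in thymus, 87.5 ± 4.78% in bone and 37.1 ± 7.5% in skin.

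Chst4, a sulfotransferase of selectin ligands in high endothelial venules, had 26, 190 and 34 reads in thymus 2, 3 and 1-3 and 0 in bone and skin. Chst4 was at least 76.4-fold higher in thymus than in bone and at least 59.7-fold higher than in skin (adjusted p = 0.0235 and 0.0227). Each call was lost in 4 of 9 fits that left out a library, both without thymus 3. Of the thymus libraries, thymus 3 had the highest thymocyte and myeloid marker sums. The endothelial marker sums were 67.4, 101.5 and 103.3 CPM in thymus 2, 3 and 1-3. The part of other cells in the Chst4 reads was not tested. Chst8, a N-acetylgalactosamine 4-O-sulfotransferase of hormone glycans, stood at 4.22, 3.78 and 4.41 CPM in thymus, 0, 0.00853 and 0.13 in bone and 0.281, 0.176 and 0.115 in skin. The thymus libraries were above all others. Chst8 was higher in thymus than in bone (6.49 ± 1.21, adjusted p = 0.00156) and than in skin (4.43 ± 1.08, adjusted p = 0.00692). The call against skin was lost in 1 of 20 alternatives, the replicate block. Chst9, its closest relative, had 0 reads in all libraries.

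Chst1, the keratan galactose 6-O-sulfotransferase, stood at 15.1, 21.6 and 29.2 CPM in thymus, 5.28, 7.65 and 6.87 in bone and 18.9, 18.8 and 21.2 in skin. The bone libraries were below all others. Chst1 was lower in bone than in thymus (1.73 ± 0.24, adjusted p = 0.000191) and than in skin (-1.57 ± 0.24, adjusted p = 0.000244). Thymus and skin did not pass (0.16 ± 0.23, adjusted p = 0.635), but with library size only Chst1 was higher in thymus (0.79, adjusted p = 0.016). Chst10, which makes the HNK-1 epitope, was also lowest in bone, at 0.796, 2.18 and 1.38 CPM against 6.97, 7.06 and 4.52 in thymus and 6.92, 6.95 and 3.74 in skin. Chst10 was lower in bone than in thymus (2.09 ± 0.43, adjusted p = 0.00296) and than in skin (-2.01 ± 0.43, adjusted p = 0.00241).

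Of 13 tested core proteins that carry heparan sulfate, 5 were higher and 3 lower in thymus than in bone, beside 16.5% and 16.1% of all genes. Against skin, 7 were higher and 3 lower in thymus, beside 19.3% and 18.3%, and with library size only 9 and 3, beside 46.2% and 7.92%. Between bone and skin, 5 were higher and 6 lower in bone, beside 23.7% and 23.4%, and with library size only 7 and 3, beside 47.8% and 8.9%. Gpc6, a glypican, stood at 567 to 622 CPM in thymus, 72.7 to 87.2 in bone, and in skin 279 to 356 (2.87 ± 0.15 against bone, 0.88 ± 0.14 against skin). Gpc3 was highest in skin, at 1495 to 2025 CPM against 87.8 to 187 in thymus and 102 to 152 in bone. Sdc4, a syndecan, was lowest in thymus, at 20.1 to 30.6 CPM against 175 to 219 in bone, and in skin 76.6 to 152. Gpc1 was lowest in skin, at 7.24 to 9.16 CPM against 57.9 to 75.7 in thymus and 127 to 150 in bone.

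Of 14 tested carriers of chondroitin and dermatan sulfate, 2 were higher and 5 lower in thymus than in bone, beside 16.5% and 16.1% of all genes. Against skin, 4 were higher and 4 lower in thymus, beside 19.3% and 18.3%, and with library size only 5 and 3, beside 46.2% and 7.92%. Between bone and skin, 8 were higher and 2 lower in bone, beside 23.7% and 23.4%, and with library size only also 8 and 2, beside 47.8% and 8.9%. Acan, the aggrecan of cartilage, stood at 0.0336 to 0.0588 CPM in thymus, 134 to 208 in bone, and in skin 1.07 to 1.92. Cspg4 was at 21.5 to 27.5 CPM in thymus, 189 to 224 in bone, and in skin 10.4 to 18.4. Bgn, encoding biglycan, was highest in thymus at 7832 to 11480 CPM and was higher there than in bone (1.16 ± 0.22) and skin (2.14 ± 0.22). Of 6 carriers of keratan sulfate, Fmod (-6.01 ± 0.32) and Kera (-6.06 ± 0.30) were lower in thymus than in bone and Prelp (0.68 ± 0.20) was higher, beside 16.1% and 16.5% of all genes, and Fmod and Kera were also higher in bone than in skin.

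Of 17 genes that degrade these chains, 8 were higher and 0 lower in thymus than in bone by edgeR, beside 16.5% and 16.1% of all genes. Against skin, 4 were higher and 4 lower in thymus, shares near the 19.3% and 18.3% of all genes, and with library size only 10 and 2, beside 46.2% and 7.92%. Between bone and skin, 1 was higher and 6 lower in bone, beside 23.7% and 23.4%, and with library size only 5 and 4, beside 47.8% and 8.9%. Hpse, the heparanase that cuts heparan sulfate, was highest in skin at 66 to 68.1 CPM, with 17.2 to 22.9 in thymus and 6.43 to 8.77 in bone, and all 3 comparisons passed. The hyaluronidases Hyal1 and Hyal2 were higher in thymus than in bone (1.52 ± 0.26 and 1.16 ± 0.20) and than in skin (1.36 ± 0.26 and 0.69 ± 0.20).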

How the data were processed

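The 9 libraries are RNA sequencing of sorted cells. Per gene symbol, the authors deposited a read count in one table and, in another, an RPKM beside a whole-number signal, the sum of read bases, used here only as a check. CASAVA 1.8.2, HTSeq 0.5.4 and build mm10 appear in the submitters' processing notes with no role; aligner, annotation and strand setting: not given in the sources used here. Summary lines such as reads outside genes, 5.05 to 14.8% of all reads, were left out.

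The test was edgeR 4.0.16 under R 4.3.3 (robust quasi-likelihood, TMM, filterByExpr by tissue, 15635 genes, 1 fit of all libraries), with Benjamini-Hochberg adjustment over all genes and a threshold of 0.05. Its script was tested on simulated data in which 200 genes changed. Against a tissue with 0 reads, folds are lower bounds from a floor of 3 reads over its libraries. Against 1 to 3 reads a ratio carries its 95% counting interval. Floors and intervals cover counting error only. TMM factors spanned 0.701 to 0.77 in skin, against 1.10 to 1.18 for thymus and 1.16 to 1.23 for bone. Shared windows of 100 bases were counted among GENCODE vM21 transcripts. Libraries of a tissue differed by a chi-square of 96.3 to 306.5 per degree of freedom, far above sampling noise.

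Members and lists were chosen with earlier results of these data known. Values in every library are given for members apart in 1 tissue and for the 3 largest and 3 lowest fold changes of each comparison, with 1 CPM or more in the higher tissue. Of each companion list, up to 3 genes with the smallest p in a comparison are named, and Papss1, Papss2, Hyal2 and the immediate early genes were chosen after their values were seen. Alternatives were other scaling factors, other filters, DESeq2 1.42.0, limma 3.58.1 on log2 of RPKM plus 1 or 0.1, the 2 tissues compared alone, a replicate block and each library left out. Deviations of libraries with the same number correlated at r = -0.114 to 0.095, so the numbers were not taken as pairs.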

Additional observations from a re-analysis of the deposited data

How the results depend on the processing

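The directions against skin depended on the scaling. With library size only, 18 members were higher and 6 lower in thymus than in skin, 10 were lower in bone than in skin, and 1 was higher in skin than in both other tissues. With limma on log2(RPKM + 1) and on log2(RPKM + 0.1) these were 17, 8, 12 and 1, and without the filter on RPKM 15, 8, 12 and 1. Signs turned against skin with library size only for the thymus values of B3gat3 (0.06), Csgalnact2 (0.62), Dse (0.12), Ext2 (0.11), Glce (0.0419), Ndst1 (0.23), Ndst2 (0.48) and Sulf1 (0.0325), and for the bone values of Dse (0.18), Extl3 (0.10), Ndst1 (0.25) and Xylt2 (0.0822). On log2(RPKM + 1) they turned for the thymus values of Csgalnact2 (0.51), Dse (0.0411), Ext2 (0.0346), Ndst1 (0.14) and Ndst2 (0.37) and the bone values of Dse (0.0385) and Ndst1 (0.11), on log2(RPKM + 0.1) to 0.54, 0.0427, 0.0354, 0.15, 0.42, 0.0399 and 0.11, and without the filter to 0.51, 0.0411, 0.0346, 0.14, 0.0385 and 0.11 for all of these but Ndst2. Listed are only turns of values that passed the test in the main fit or in the alternative. Others turned without passing in either, such as Extl2 between thymus and skin, at -0.18 in the main fit and as much as 0.45 in an alternative. The cause was not tested.

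With the replicate block 3399 genes passed between thymus and bone against 5101 without it, 3 members instead of 6 were higher in thymus than in both other tissues, and 24, 19 and 34 members passed in the 3 comparisons. Thymus 1-3 is alone in its block, so it is fitted exactly there and the thymus level rests on thymus 2 and 3. The drop is therefore no measure of pairing. With thymus 1-3 left out and no block, 4094 genes passed between thymus and bone and 4 members were higher in thymus. Leaving out a library gave 23 to 30 members between thymus and bone, 21 to 29 between thymus and skin, 28 to 34 between bone and skin, and 4 to 6 higher in each tissue than in both others. Over the members' fold changes, the 9 fits that left out a library kept 1146 values on their side of the threshold, lost 81 and gained 15. RLE and upper quartile factors, DESeq2, both count filters and the fits of 2 tissues turned no sign of a called value. Depth limits what can be said of members with few reads, such as Chst4, Chst5, Ndst3, Ndst4 and Hs6st3, and Chst4 had too few to be tested under the stricter count filter or the RPKM filter.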

Other observations

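In bone 2 the count table lists 0 reads for Hs6st3, while the deposited signal there was 4514, which is worth 45.7 reads, and the RPKM was 0.228. Over all libraries the deposited signal of Hs6st3 was 2.64 times its reads, against 0.954 times for Has2 and 1.03 times for Has3. Its share of the 6-O-sulfotransferase RPKM in bone 2, 2.92%, therefore has no read in the count table behind it. Of 48 shares of isoforms computed from RPKM, 29 moved by more than the spread between libraries when computed from reads, which are not per length. When a library was left out 0 of 144 moved. A mean of 3 libraries cannot move by more than their spread in this way, so that count says nothing about the shares.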
